A study of Mus musculus with 18 samples.

Results

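Axon guidance ligands and receptors were followed in spinal cord of the SMNΔ7 mouse through the first days after birth. The genes were taken by name: semaphorins of classes 3 to 7, ephrins, Slits and netrins as ligands, and plexins, neuropilins, Eph receptors, Robo receptors, Dcc, Neo1 and Unc5 receptors. A row had to carry 1 gene symbol and reach an FPKM of 1 or more in at least 1 of 6 groups, FPKM being fragments per kilobase of transcript scaled to depth. Of 58570 gene loci in all, 60 matched the names and 54 reached the level, 27 ligands and 27 receptors. They stood for 53 symbols, because Epha5 had a main row and a minor row at one locus. The 6 that stayed below the level were Ntn5, Robo3, Efna4, Epha2, Sema3g and Epha1, with highest values of FPKM 0.236 to 0.934. Those nearest to the threshold were Epha1 at 0.934 outside it, and Efna1 inside it with a highest value of 1.44. A further 10 matching symbols lay in loci that join several symbols and are outside the rule.

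The study compared total RNA of whole cords on postnatal days 2, 6 and 10, written P2, P6 and P10, between pups homozygous for the SMNΔ7 model, called SMA for spinal muscular atrophy, and heterozygous controls. Each of the 6 groups (control P2, P6 and P10, SMA P2, P6 and P10) has 3 labelled libraries, which the authors combined into 1 value per gene with a model interval. The labels give the genotypes only as homozygote and heterozygote; as background, in this line the mouse Smn1 gene is disrupted in every cell, on both copies in affected pups and on a single copy in heterozygotes, and affected and control pups alike carry human SMN transgenes, among them SMNΔ7. Libraries were stranded and made from RNA depleted of ribosomal RNA. Sex, litter and pooling of animals were not given in the sources used here.

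These families guide growing axons by attraction and repulsion. Semaphorins signal through plexins, most secreted class 3 members with neuropilins as co-receptors. Ephrins bind Eph receptors between touching cells, and Slits repel axons through Robo receptors. Netrins attract through Dcc and repel through Unc5 receptors. In the embryonic cord they steer commissural axons across the midline and motor axons out of it, and after birth several are found in oligodendrocytes, astrocytes or blood vessels.

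Estimated fragments totalled 6881671 to 7386338 per group, and the guidance genes took 0.387% to 0.448% of them, with a median of 299 to 363 fragments per gene. The cord identity genes Hoxc8, Hoxc9 and Hoxa7 had summed FPKM of 36.8 to 43.3, and the forebrain gene Emx1 stayed at 0 to 0.117. Smn1 had FPKM 2.70, 4.46 and 3.54 in control P2, P6 and P10, and 0.0210, 0 and 2.82 in SMA P2, P6 and P10. By its value, the group labelled SMA at P10 thus went against its label, and it is called SMA P10 here only as labelled. That value rests on 20.2 fragments, and its interval of 0 to 6.08 overlaps the 0 to 1.92 of SMA P2. Summed FPKM of 7 markers of myelinating oligodendrocytes was 248, 1738 and 7444 in control P2, P6 and P10, against 3372, 1962 and 4150 in SMA. Every one of these 7 markers was higher in SMA than in control at P2 and lower at P10, and none was at 0. Comparisons that use SMA P2 or SMA P10 are therefore given beside P6, which uses neither.

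Semaphorins were the most abundant guidance ligands, and within them the transmembrane class 6 led. Sema6d, which binds plexin-A receptors, had FPKM 39.1, 44.4 and 45.1 in control cords at P2, P6 and P10 and 39.9, 42.6 and 41.5 in SMA cords. Sema6a, a class 6 member known from oligodendrocytes and from boundary cells of motor roots, had FPKM 24.4, 35.0 and 49.4 in control and 33.7, 32.8 and 38.6 in SMA. In control cords Sema6a ranked as the sixth of the 54 rows at P2 and the first at P10, while its intervals at these ages overlapped. Sema6b had FPKM 9.79 at control P2 and 8.72 at control P10, and Sema6c 6.09 and 4.201.

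Class 5 semaphorins carry thrombospondin repeats that bind glycosaminoglycans. Sema5a, described in the oligodendrocyte lineage, had FPKM 15.9, 23.1 and 34.2 in control P2, P6 and P10 and 21.6, 24.6 and 29.7 in SMA. Its values were higher at each later age in control and in SMA. Sema5b had 3.89, 3.00 and 5.73 in control and 4.73, 5.68 and 4.25 in SMA, with no steady order. Sema7a, the membrane-anchored class 7 semaphorin, had 7.90, 9.41 and 13.4 in control against 9.12, 9.75 and 9.86 in SMA.

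Among the secreted class 3 semaphorins, most of which act through neuropilins, the most abundant in a row of its own was Sema3c. It had FPKM 12.4, 11.5 and 7.82 in control P2, P6 and P10 and 10.7, 10.7 and 9.04 in SMA. Sema3d had 1.62, 3.41 and 5.76 in control and 3.78, 3.50 and 4.71 in SMA, so its control P2 value was the lowest of the 6. Sema3b had 2.55, 3.42 and 5.53 in control, Sema3f 5.43, 4.56 and 3.90, and Sema3e 1.72, 2.07 and 2.06. The class thus held members of opposite order in control, and its summed FPKM was 23.7 at P2, 25.0 at P6 and 25.1 at P10. Of the transmembrane class 4, which signals mainly through plexin-B receptors, Sema4g had 13.3, 11.5 and 9.93 in control and 11.6, 13.0 and 12.1 in SMA. Sema4b had FPKM 8.31 at control P2 and 6.36 at control P10, Sema4c 4.29 and 5.52, and Sema4f 3.88 and 3.68.

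Slit2, a midline repellent, had FPKM 29.1, 30.6 and 24.9 in control P2, P6 and P10 and 27.3, 26.2 and 26.2 in SMA. Slit1, a neuronal Slit, had 18.8, 14.2 and 10.1 in control and 14.7, 15.8 and 13.96 in SMA. Slit3 ran the other way in control, at 4.29, 4.90 and 5.86. Ntn1, the floor plate attractant netrin-1, had 13.4, 8.88 and 7.81 in control and 11.1, 10.1 and 9.10 in SMA, lower at each later age in each genotype. Ntn4, a netrin related to laminin and found in basement membranes, stayed between 1.60 and 2.001 in all 6 groups.

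Ephrin-B3, encoded by Efnb3, is the midline ligand that keeps corticospinal axons on their side. It had FPKM 28.6, 21.4 and 29.0 in control P2, P6 and P10 and 29.1, 24.7 and 25.4 in SMA. Efnb1 had 3.26, 2.45 and 1.89 in control. Efna3, the most abundant of the membrane-anchored ephrin-A genes, had 16.1, 11.9 and 10.5 in control and 14.5, 13.6 and 12.2 in SMA. Efna5 had FPKM 7.20 at control P2 and 5.25 at control P10, Efna2 4.53 and 3.80, and Efna1 1.44 and 1.35. All 4 ephrin-A genes had lower values at control P10 than at control P2.

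On the receptor side, Neo1, the receptor of netrins and of repulsive guidance molecules, was the most abundant in a row of its own. It had FPKM 31.7, 26.3 and 25.9 in control P2, P6 and P10 and 31.1, 29.5 and 28.1 in SMA. Dcc, the attractive netrin-1 receptor, had 20.8, 20.5 and 12.01 in control and 20.0, 21.3 and 13.4 in SMA, the lowest value in each genotype being at P10. The intervals of Dcc were among the widest, with a standard error of 1.70 for its log2 ratio between control P10 and P2.

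Plexin-A genes, the signalling partners of neuropilins and of class 6 semaphorins, were lower at each later age in control for 3 of 3 members. Plxna2 had FPKM 27.3, 23.8 and 17.5 in control and 22.3, 23.5 and 22.9 in SMA. Plxna3 had 15.0, 14.9 and 10.2 in control and 10.2, 14.7 and 13.8 in SMA, and Plxna4 15.4, 14.7 and 12.2 in control. Summed over the 3 genes, FPKM was 57.7, 53.4 and 39.9 in control against 46.9, 53.7 and 51.0 in SMA. Plxnc1, the receptor of Sema7a, had 11.9, 10.3 and 5.79 in control and 8.30, 9.47 and 8.57 in SMA. A pair of plexins ran the other way in control. Plxnb1, a receptor of Sema4d, had 9.03, 10.5 and 13.0 in control and 12.1, 11.4 and 11.3 in SMA, and Plxnd1, the endothelial receptor of Sema3e, 3.89, 4.95 and 6.88 in control and 4.48, 5.9997 and 5.21 in SMA. Nrp2, the neuropilin of Sema3f, had 21.4, 17.7 and 14.1 in control and 17.6, 17.3 and 15.5 in SMA.

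Among Eph receptors, the main Epha5 row had FPKM 18.4, 16.6 and 14.7 in control P2, P6 and P10 and 15.1, 16.2 and 17.5 in SMA. Epha4, through which ephrin-B3 acts on corticospinal axons, had 16.1, 15.1 and 12.9 in control and 14.6, 14.2 and 15.3 in SMA. Epha7 had FPKM 10.5 at control P2 and 7.10 at control P10, Epha8 3.59 and 2.12, and Epha3 2.83 and 1.42. Epha10, which lacks an active kinase, and Epha6 stood apart in order, with FPKM 5.997 and 8.45 for Epha10 and 9.24 and 9.81 for Epha6. The minor Epha5 row lay between 0.777 and 1.71 in the 6 groups, with a lower interval bound at 0 in each. In the EphB class Ephb1 had 8.46, 9.96 and 14.2 in control and 11.5, 10.1 and 11.4 in SMA, while Ephb2 had 10.5, 8.15 and 5.95 in control and 8.08, 6.36 and 8.88 in SMA. Ephb3 had FPKM 3.51 at control P2 and 2.31 at control P10, and the venous receptor gene Ephb4 1.81 and 1.95. Since Ephb1 and Ephb2 ran in opposite order, the summed EphB level in control was 24.3 at P2 and 24.4 at P10.

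Robo1, the main Slit receptor measured on its own, had FPKM 20.2, 17.3 and 13.3 in control P2, P6 and P10 and 18.2, 17.1 and 15.4 in SMA. Robo4, the endothelial Robo, had 1.20, 1.35 and 1.71 in control and 1.85, 1.69 and 1.28 in SMA, in the reverse order of age between the genotypes. Unc5c, a repulsive netrin receptor, was the steadiest of its family in control with 15.0, 14.6 and 14.5, and had 14.4, 15.0 and 16.9 in SMA. Unc5d had FPKM 8.98 at control P2 and 7.03 at control P10, and Unc5a 3.28 and 3.67.

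**Figure D1:**
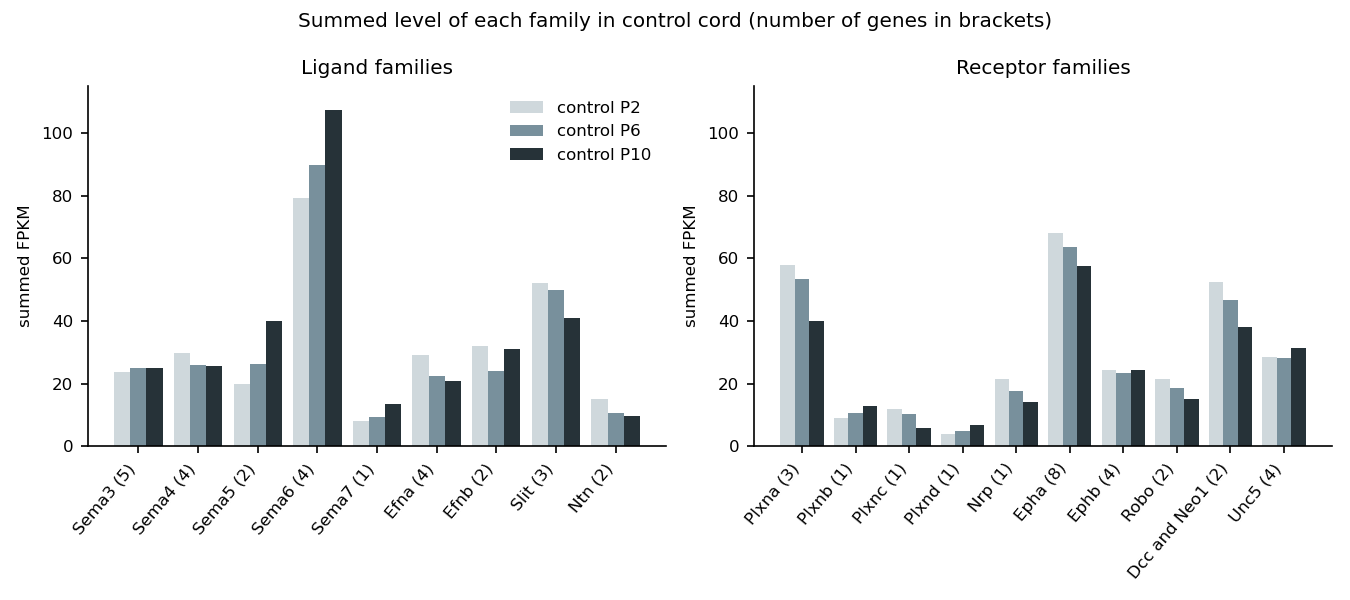
Summed FPKM (vertical axis) of each ligand family (left) and receptor family (right) in control cords at P2, P6 and P10, with the number of genes in brackets; the bars are authors' group values and carry no error. Class 6 semaphorins reach 107 at P10 from 79.4 at P2, and plexin-A genes stand at 39.9 at P10 against 57.7 at P2.

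How the guidance genes changed with age was asked in control cords, where no SMA group enters. Unc5b, the Unc5 receptor known from endothelial cells and vascular guidance, was the 1 member called: it rose 4.88-fold from P2 to P10. The ratio of FPKM was compared by a two-sided z test with a standard error from the authors' interval, adjusted by the Benjamini-Hochberg method over all loci tested and called at an adjusted p under 0.05. By this test 126 of 19956 loci were called (0.631%), and among the 54 guidance genes 1, with 4 at an unadjusted p under 0.05 against 3.51% of all loci. Unc5b had FPKM 1.26 at control P2 (interval 0.535 to 1.99), 2.33 at P6 (1.03 to 3.64) and 6.17 at P10 (3.42 to 8.91), and in SMA 4.26 at P2 (1.61 to 6.91), 2.76 at P6 and 3.74 at P10. The control P2 and P10 intervals did not overlap, whereas the 3 SMA intervals did. The log2 ratio of control P10 to P2 was 2.29 ± 0.54 (standard error; adjusted p = 0.0049), which puts the fold change at 2.36 to 10.1 with 95% confidence under the model interval. Between neighbouring ages it was 0.89 ± 0.59 from P2 to P6 and 1.40 ± 0.53 from P6 to P10, neither of them called. In bulk cord, fewer cells of a type and less RNA per cell cannot be told apart. Summed FPKM of 5 endothelial markers was 31.6, 43.6 and 47.5 in control P2, P6 and P10 and 39.2, 34.2 and 34.2 in SMA, with 5 of 5 higher at control P10 than P2. The 7 myelinating oligodendrocyte markers, with the sums given above, were all higher at control P10 than P2. Summed FPKM of 5 astrocyte markers was 275, 484 and 821 in control and 549, 521 and 616 in SMA. That of 4 Schwann cell markers was 60.5, 153 and 273 in control and 79.7, 205 and 137 in SMA. That of 5 microglia markers was 30.9, 36.0 and 39.6 in control and 42.2, 41.4 and 39.0 in SMA. That of 3 oligodendrocyte precursor markers was 27.4, 58.15 and 104 in control and 52.1, 53.3 and 73.1 in SMA. Each of these sums rose over the 3 ages of control, as Unc5b did. The myelinating oligodendrocyte, astrocyte, Schwann cell and microglia sums had SMA above control at P2 and P6 and below it at P10, as Unc5b did. For microglia at P10, however, 3 of 5 markers were higher in SMA. The endothelial and precursor sums had SMA below control at P6. None of these markers was at 0, and their part in the Unc5b change was not tested.

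The promoter of Unc5b is shown because it belongs to the called gene, beside those of the 4 genes that follow it in size of ratio and have an entry in the promoter table, 2 in each direction; Sema3b and Sema6a have none. Unc5b (ENSMUSG00000020099.8) is protein-coding on the minus strand of chromosome 10 from 60762593 to 60831581 of GRCm38. The 250 bases before its RefSeq start (GRCm38.p6, chr10:60831582-60831831, minus strand) held 27 CG pairs. For the others 100 bases before the start are printed: Sema3d (chr5:12383066-12383165, plus strand), Sema5a (chr15:32244713-32244812, plus strand), Plxnc1 (chr10:94944846-94944945, minus strand) and Epha3 (chr16:63864176-63864275, minus strand). Capitals mark matches to the GC box, GGGCGG or CCGCCC on the other strand, and overlapping matches run together; no other motif searched was met in these stretches.
Unc5b: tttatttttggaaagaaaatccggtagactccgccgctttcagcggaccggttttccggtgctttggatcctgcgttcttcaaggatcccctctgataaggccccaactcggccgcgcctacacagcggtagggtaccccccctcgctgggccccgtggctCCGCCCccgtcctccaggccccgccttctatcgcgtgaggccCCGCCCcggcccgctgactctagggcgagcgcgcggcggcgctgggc
Sema3d: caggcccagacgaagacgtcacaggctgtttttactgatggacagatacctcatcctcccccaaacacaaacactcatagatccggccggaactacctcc
Sema5a: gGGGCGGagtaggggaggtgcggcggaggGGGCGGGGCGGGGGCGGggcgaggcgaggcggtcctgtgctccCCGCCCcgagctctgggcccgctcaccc
Plxnc1: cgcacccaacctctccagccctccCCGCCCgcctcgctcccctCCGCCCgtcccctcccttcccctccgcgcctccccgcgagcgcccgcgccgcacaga
Epha3: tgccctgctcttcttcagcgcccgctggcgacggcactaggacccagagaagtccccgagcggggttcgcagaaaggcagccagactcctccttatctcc
Unc5b had 2 matches, Sema5a 5, Plxnc1 2, and Sema3d and Epha3 0 in the stretch shown, so the match did not follow the direction of the ratio. Over the 250 bases, 40 of 52 promoters of 44 guidance genes held it (76.9%), against 42.6% of 21263 promoters of protein-coding genes and 32.7% of all 32851 in the table. The E-box CAGCTG stood in 13.5% of the guidance promoters and 12.1% of the coding ones, ACAAAG (bound by Sox factors) in 7.69% and 14.9%, and TATAAA in 1.92% and 11.6%, each on either strand. Guidance promoters had a median of 18.5 CG pairs, and promoters of protein-coding genes 10.

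Behind Unc5b, the ratios between control P10 and P2 were led by semaphorins on the higher side, and none of these was called. Sema3d had a log2 ratio of 1.83 ± 0.62 (adjusted p = 0.258) and Sema5a 1.11 ± 0.44 (adjusted p = 0.611). Sema3d and Unc5b were the 2 members whose control P2 and P10 intervals did not overlap, against 1.36% of all loci. A z test from the expected counts called these same 2, and 1.08% of loci. Had the interval been that of 1 library, which the files do not say, 5 members would be called, Unc5b, Sema3d, Sema5a, Sema6a and Epha3, with 4.61% of loci. Sema3b had 1.12 ± 1.13, Sema6a 1.02 ± 0.56 and Plxnd1 0.82 ± 0.94. On the lower side were Plxnc1 with -1.03 ± 0.61, Epha3 with -0.99 ± 0.50, Slit1 with -0.90 ± 0.59, Ephb2 with -0.82 ± 0.92, Dcc with -0.79 ± 1.70 and Efnb1 with -0.79 ± 0.60. For these 9 the adjusted p was 1.00. A ratio of 2-fold or more was found for 5 members in the higher direction (8.2% of loci) and for 1, Plxnc1, in the lower (4.36% of loci). At 1.5-fold the counts were 8 higher (14.8% of members against 16.9% of loci) and 14 lower (25.9% of members against 12.3% of loci).

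Across the guidance genes the median log2 ratio of control P10 to P2 was -0.27, beside 0.02 over all loci tested, and 21 of 54 were above 0 (51.8% of loci). Receptors had a median of -0.34, with 18 of 27 below 0 and 9 of these 1.5-fold or more lower. Summed FPKM of 7 neuron markers was 675, 566 and 520 in control P2, P6 and P10, with 2 of 7 higher at P10 than P2 and none at 0; their part in the levels of the guidance genes was not tested. Ligands had a median of -0.09, with 15 of 27 below 0 and 5 of these 1.5-fold or more lower. Values that were lower at each later age in control were found in 27 of 54 members, 17 receptors and 10 ligands, against 24% of loci at FPKM 1 or more; those higher at each later age were 14 of 54, 7 of each kind, against 26.8% of loci. Summed FPKM of the 27 receptors was 299, 277 and 246 in control P2, P6 and P10, and that of the 27 ligands 289, 283 and 313. Without Sema5a and Sema6a, the 2 ligands with the greatest gain in FPKM, left out after their values were seen, the ligand sum was 249, 225 and 230. These are descriptions with no test of ligands against receptors, since the genes share their libraries. The median standard error of the ratios was 0.58, so that the 95% interval of a typical gene reaches 2.196-fold to either side.

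**Figure D2:**
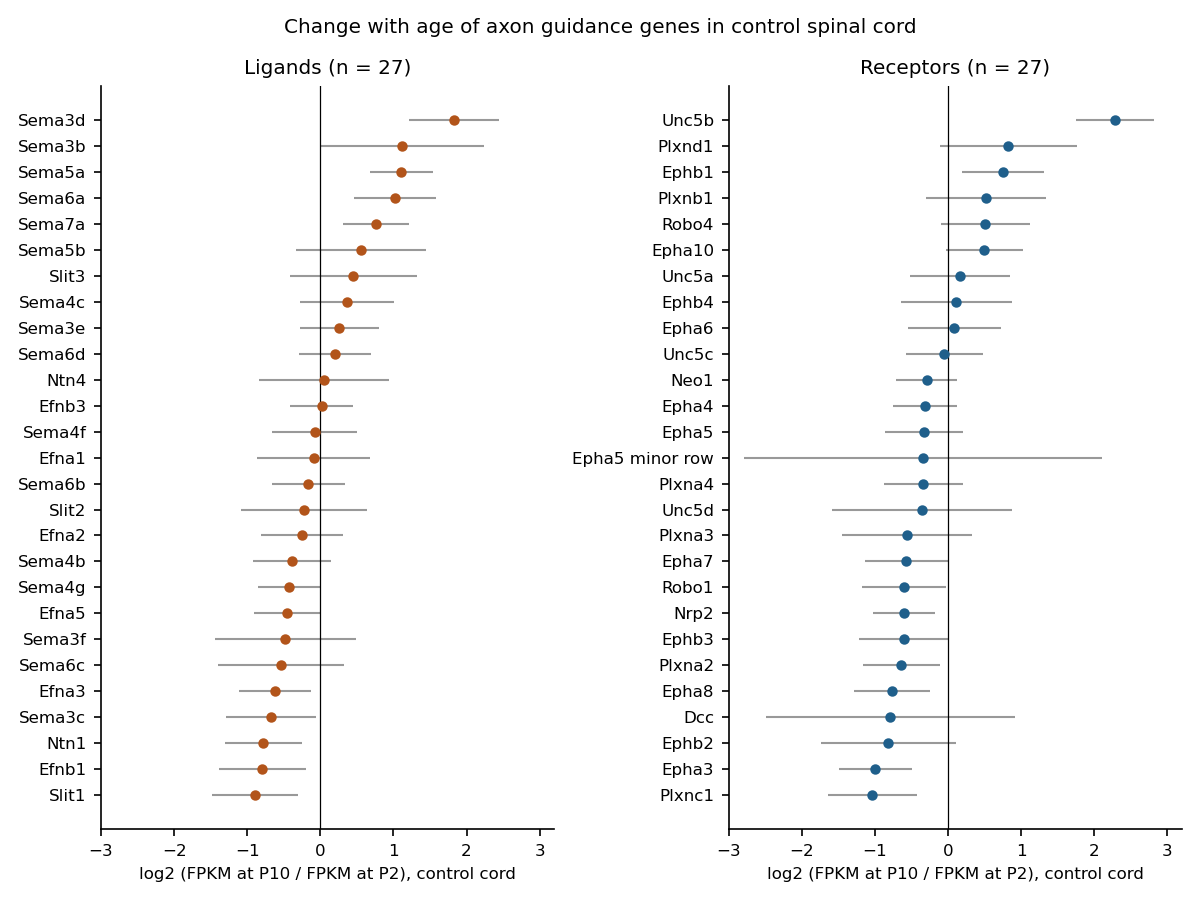
Log2 ratio of FPKM at P10 to FPKM at P2 in control cords (horizontal axis) for each of 27 ligands (left) and 27 receptors (right), sorted by ratio; points are ratios of the authors' group values and bars 1 standard error from their interval. Unc5b lies farthest to the right at 2.29, Plxnc1 farthest to the left at -1.03, and 18 of 27 receptors lie below 0.

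Within the shorter steps from P2 to P6 and from P6 to P10 no guidance gene was called. From P2 to P6 in control, 22 of 19622 loci were called (0.112%) and 0 of 54 members, with 0 at an unadjusted p under 0.05 (0.637% of loci). Ratios above 0 were found for 18 of 54 (49.7% of loci). The greatest ratios were those of Sema3d (1.07 ± 0.67) and Unc5b on the higher side and of Epha8 (-0.76 ± 0.53), Sema6b (-0.66 ± 0.54) and Ntn1 (-0.59 ± 0.50) on the lower. From P6 to P10, 15 of 19974 loci were called (0.0751%) and 0 members by the z test, with Unc5b the 1 member at an unadjusted p under 0.05 (1.12% of loci) and 23 of 54 above 0 (52.8% of loci). Read as the interval of 1 library, Unc5b was called here, as were 1.04% of loci. In size Sema5b (0.93 ± 0.88), Plxnc1 (-0.83 ± 0.63) and Dcc (-0.77 ± 1.68) followed it. Plxnc1 and Dcc thus had P6 levels near those of P2, whereas Epha8 had its P10 level by P6 (2.13 at P6 and 2.12 at P10).

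**Figure D3:**
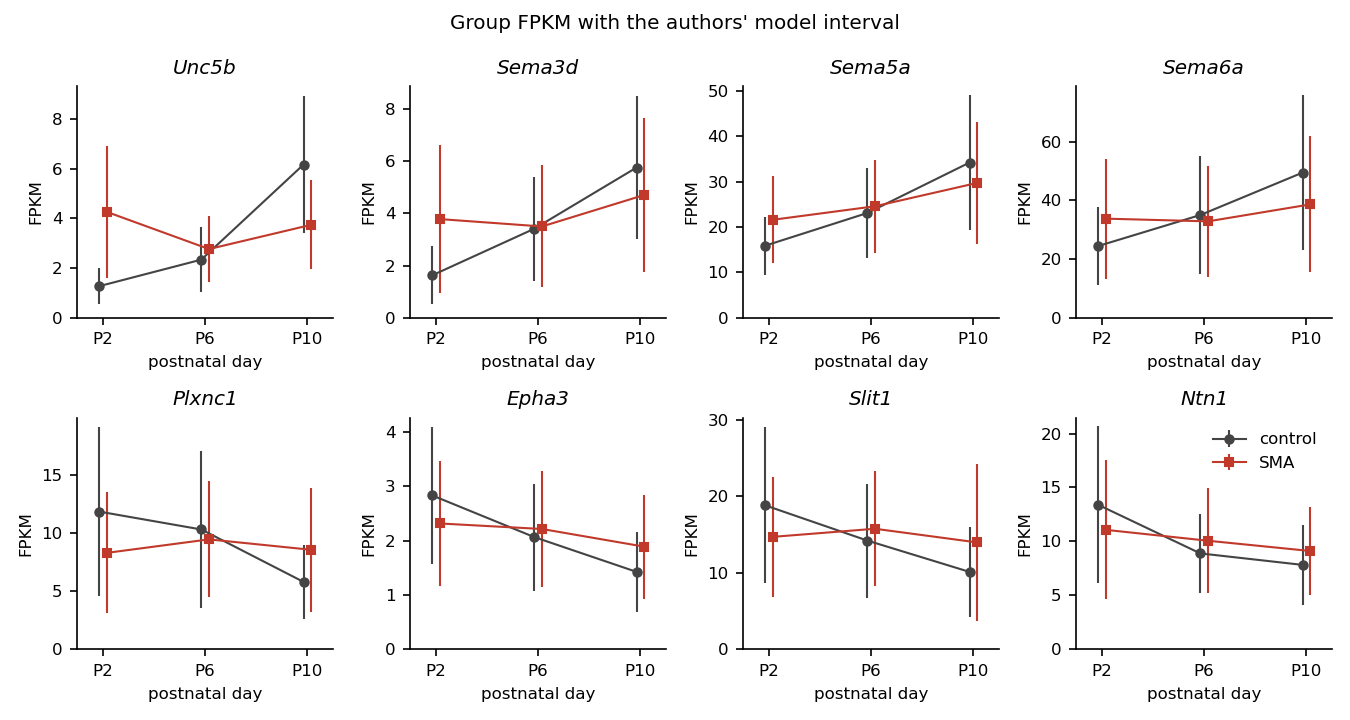
FPKM (vertical axes, each from 0) of 8 guidance genes against postnatal day in control (grey circles) and SMA cords (red squares); points are authors' group values and bars their model interval. In control Unc5b goes from 1.26 to 6.17 and Plxnc1 from 11.9 to 5.79, while the SMA values at P2 and P10 lie closer together, at 4.26 and 3.74 and at 8.30 and 8.57.

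In SMA cords the same comparison between P10 and P2 gave smaller ratios for 42 of 54 members (77.8%, against 61.3% of loci). No member was called, while 12 of 19938 loci were (0.0602%), and 0 members had an unadjusted p under 0.05 (0.331% of loci). The members' median log2 ratio was -0.01, beside 0.05 over all loci, and 26 of 54 were above 0 (56.7% of loci), or 20 of 54 after centring on the median of all loci. Of the 8 members 1.5-fold or more higher at control P10, 6 were above 0 in SMA, with a median of 0.21 against 1.06 in control; of all loci chosen in this way 2150 of 2881 were, with medians of 0.24 against 0.94. Of the 14 that were 1.5-fold or more lower, 10 were below 0 in SMA, with a median of -0.21 against -0.77; of all loci 1399 of 2131 were, with medians of -0.16 against -0.83. Members chosen by their control ratio thus lay near the background in SMA. Unc5b had -0.19 ± 0.58 in SMA, and the difference between genotypes in its change was -2.48 ± 0.79 on the log2 scale, not called (unadjusted p = 0.0017, adjusted p = 0.909). No other member reached an unadjusted p under 0.05 for this difference (0.894% of loci), 34 of 54 were above 0 (54.3% of loci), and 12 of 20916 loci were called (0.0574%). With the interval read as that of 1 library it was called, as were 0.779% of loci. These values rest on SMA P2 and SMA P10, whose myelin marker sums of 3372 and 4150 lay nearer to each other than the control sums of 248 and 7444; the part of those cells in the guidance genes was not tested.

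Whether SMA changed the guidance genes was asked at each age. At P6, where Smn1 was listed at 0 in SMA, no guidance gene was called and none had an unadjusted p under 0.05, beside 9 of 19631 loci called (0.0458%) and 0.168% of loci at an unadjusted p under 0.05. That share is below what the threshold gives with no difference. The model errors were thus wide, and a lack of calls does not show a lack of difference. The members' median log2 ratio of SMA to control was 0.05, beside 0.07 over all loci, and 37 of 54 were above 0 (68.5%, against 60.1% of loci), or 25 of 54 (46.3%) after centring on the median of all loci. None was 2-fold or more higher (1.47% of loci) or lower (2.23% of loci). At this age 7 of 7 myelinating oligodendrocyte and 0 of 5 endothelial markers were higher in SMA. Of neuron markers 5 of 7 were higher (summed FPKM 566 in control and 622 in SMA). Of motor neuron markers 2 of 5 were (27.4 and 20.9). Markers of tissue next to the cord were higher too. These were 6 of 6 of dorsal root ganglion (summed FPKM 35.2 in control and 44.1 in SMA), 4 of 4 of Schwann cells (153 and 205) and 4 of 5 of meninges and fibroblasts (169 and 193). None was at 0, and their part in these ratios was not tested. Of the ganglion markers, Scn10a, Scn11a, Trpv1 and Mrgprd lay at FPKM 0.0480 to 1.22 in these groups. The greatest ratios were those of Sema5b (0.92 ± 0.85), the minor Epha5 row (-0.80 ± 2.64), Epha8 (0.63 ± 0.53), Unc5a (0.48 ± 0.85), Sema6b (0.42 ± 0.54) and Ephb2 (-0.36 ± 0.82), with adjusted p = 1.00 for each. The 95% interval of the ratio lay within 4-fold to either side for 46 of 54 members and within 2-fold for 8, so smaller differences were not detectable here.

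At P2, Unc5b and Sema3d were the members farthest above control in SMA, and they were also the only ones 2-fold or more apart (2 higher, 3.04% of loci; 0 lower, 1.98% of loci). Unc5b was 3.37 times its control level, with a log2 ratio of 1.75 ± 0.62 (unadjusted p = 0.0050, adjusted p = 1.00), and Sema3d had 1.22 ± 0.75. Efna1 followed with -0.64 ± 0.86, Robo4 with 0.63 ± 0.62, Efnb1 with -0.62 ± 0.62 and Plxna3 with -0.56 ± 0.83, each at adjusted p = 1.00. No guidance gene was called, beside 24 of 19114 loci (0.126%), and Unc5b was the 1 member at an unadjusted p under 0.05 (0.743% of loci). Read as the interval of 1 library it was called, as were 0.644% of loci. In all, 22 of 54 lay above 0 (49% of loci). Receptors had a median log2 ratio of -0.13, with 18 of 27 below 0, and ligands -0.05, with 14 of 27 below 0. All 4 ephrin-A and all 3 plexin-A genes lay below control, and Sema5a (0.44), Sema5b (0.28) and Plxnb1 (0.42) above it. Beside these, 7 of 7 myelinating oligodendrocyte, 5 of 5 astrocyte and 5 of 5 endothelial markers were higher in SMA P2 than in control P2. So were 2 of 7 neuron markers (summed FPKM 675 in control and 605 in SMA) and 2 of 5 motor neuron markers (27.05 and 20.6). The same held for 4 of 4 Schwann cell markers (summed FPKM 60.5 in control and 79.7 in SMA), 1 of 5 meningeal and fibroblast markers (134 and 129) and 0 of 6 dorsal root ganglion markers (37.2 and 27.6, with 1 at 0 in SMA). Their part in the guidance genes was not tested. Of the ganglion markers, Scn10a, Scn11a, Trpv1 and Mrgprd lay at FPKM 0 to 0.189 in these groups, with 0 to 6.63 fragments. The ganglion sums were thus mostly those of Prph and Calca.

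At P10, Unc5b lay below control in the group labelled SMA, at FPKM 3.74 against 6.17 (log2 ratio -0.72 ± 0.48). The minor Epha5 row had 0.76 ± 2.25, Sema6c 0.71 ± 0.86, Ephb2 0.58 ± 1.03, Plxnc1 0.56 ± 0.61 and Sema3f 0.51 ± 0.97, all 6 with adjusted p = 1.00. No member was called or had an unadjusted p under 0.05, while 8 of 20157 loci were called (0.0397%) and 0.213% had an unadjusted p under 0.05. Ratios above 0 were found for 33 of 54 (55.6% of loci). Receptors had a median of 0.22, with 20 of 27 above 0, and ligands -0.03, with 13 of 27 above 0. All 3 plexin-A genes and 7 of 8 EphA rows lay above control, and Sema5a (-0.20), Sema6a (-0.36) and Sema7a (-0.44) below it. The EphA rows above control include the main and the minor row of Epha5, which are of the same gene. Here 0 of 7 myelinating oligodendrocyte markers, 1 of 5 astrocyte and 0 of 5 endothelial markers were higher in the SMA group. So were 4 of 7 neuron markers (summed FPKM 520 in control and 574 in SMA) and 1 of 5 motor neuron markers (28.6 and 19.2). The same held for 0 of 4 Schwann cell markers (summed FPKM 273 in control and 137 in SMA), 0 of 5 meningeal and fibroblast markers (168 and 99.0) and 0 of 6 dorsal root ganglion markers (39.1 and 26.1). None was at 0, and their part in these ratios was not tested. Of the ganglion markers, Scn10a, Scn11a, Trpv1 and Mrgprd lay at FPKM 0.0190 to 0.241 in these groups. The comparison at P2 shares the control P2 group, and that at P10 the control P10 group, with the comparison of ages in control.

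**Figure D4:**
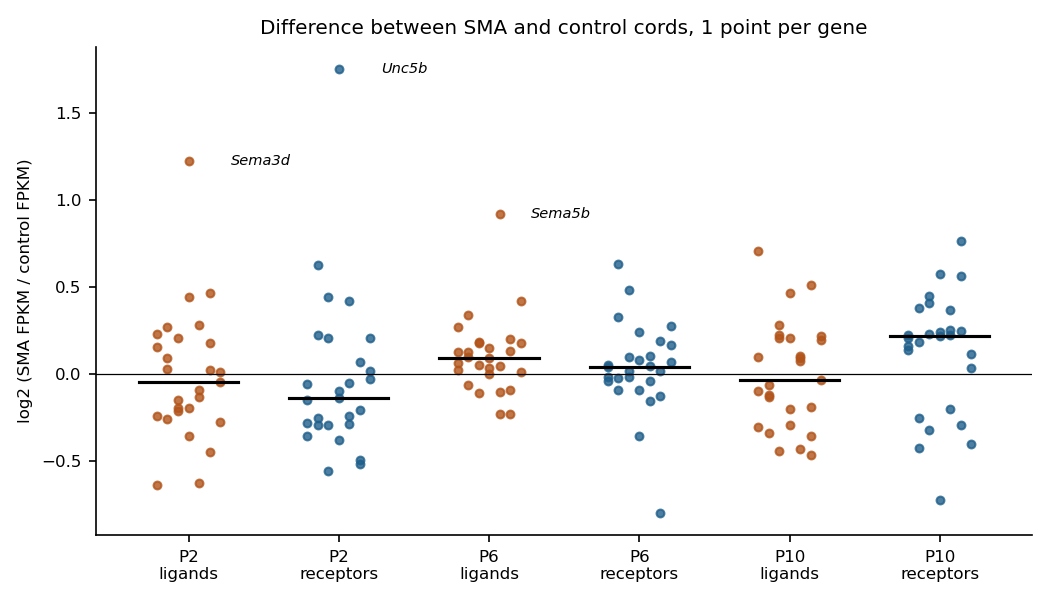
Log2 ratio of SMA to control FPKM (vertical axis) for 27 ligands (orange) and 27 receptors (blue) at P2, P6 and P10. Each point is a gene, except that Epha5 has a point for its main and its minor row, and each bar is the median. Unc5b at 1.75 and Sema3d at 1.22 stand above the rest at P2, all points at P6 lie between -0.80 and 0.92, and the receptor median goes from -0.13 at P2 to 0.22 at P10.

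Across ages the genotype difference was fitted with limma on log2(FPKM + 1) with age as a factor, the 3 ages serving as replicates. No guidance gene was called (0 of 54, and 0 at an unadjusted p under 0.05), beside 1 of 21960 loci (0.00455%) and 2.05% at an unadjusted p under 0.05. All 54 differences lay between -0.14 and 0.26, with a median of 0.03, the same as over all loci, and 34 of 54 were above 0 (60.7% of loci). Averaging over ages can cancel differences of opposite direction: the receptor median was -0.13 at P2 and 0.22 at P10. The fit also includes the group labelled SMA P10, whose Smn1 level went against its label. The narrow range is thus no bound on the difference at a single age. Unc5a, with FPKM 3.28, 2.90 and 3.67 in control and 3.80, 4.06 and 4.32 in SMA, had 0.24 ± 0.10 (unadjusted p = 0.0627, adjusted p = 0.999). Higher values in SMA at 3 of 3 ages were found for Epha6, Ntn4 and Unc5a (3 of 54, against 11.9% of loci), and lower values at 3 of 3 ages for 0 of 54 (6.86% of loci). Unc5b averaged 0.26 ± 0.33 over ages but -0.21 ± 0.23 without the P2 groups, so its direction rested on P2.

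Partners and downstream genes of the same pathways were counted from a separate list of 63, of which 58 had a row of their own. In control P10 against P2, 0 of these 58 were called higher and 2 lower. Of 19956 loci, 109 were called higher and 17 lower (0.631% in all). The list median was -0.09 beside 0.02 over all loci. Islr2, a membrane protein needed for axon extension, fell from FPKM 5.84 to 1.07 (log2 ratio -2.44 ± 0.59, adjusted p = 0.0083). Ablim3, an actin-binding LIM protein, fell from 26.1 to 8.84 (-1.56 ± 0.42, adjusted p = 0.0332). Draxin, a secreted ligand of Dcc, had FPKM 2.88 and 0.428 (-2.75 ± 1.44), the small GTPase gene Rras 1.18 and 4.32 (1.87 ± 1.22) and Chn2, a chimaerin that inactivates Rac, 6.13 and 18.5 (1.60 ± 1.39), none of them called. No gene of the list was called in any of the other comparisons. Of the guidance genes, 18 of 54 shared their locus with another locus at FPKM 1 or more, among them Slit2, Ephb1, Plxna2, Plxna4 and Robo1 but not Unc5b, and as the strand setting of the counting is not given, reads of such pairs may not be told apart.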

How the data were processed

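Per the submitters' processing notes, the build is GRCm38 and the tools include TopHat2 2.1.1 and Bowtie2 2.2.4, and Cuffdiff of Cufflinks 2.2.1 is named beside Picard and FastQC; the annotation, strand setting and normalization are not given in the sources used here. The authors deposited FPKM with interval bounds, 1 value per group and locus, and expected counts with a model variance, an "other" quantity in squared fragments. Values per library were not analysed here, so no mean or SD over replicates exists and p-values rest on the model interval. Over the z tests, 0.168% to 3.51% of loci had an unadjusted p under 0.05, fewer than that threshold gives with no difference at all. The model errors were thus wide for these ratios, and the p-values and 95% intervals are cautious rather than calibrated. The distance from FPKM to the upper bound was read as that of a 95% interval. A locus entered a test when a compared group had FPKM 1 or more, no compared group was at 0, and its status was OK. The fits used limma 3.58.1 in R 4.3.3, and scipy 1.17.1, pandas 2.3.3 and numpy 2.4.6 in Python 3.11.15 (plots, matplotlib 3.10.9), and were tested on simulated data. Gene positions come from GENCODE M21, matched by symbol for all 54 rows, and promoters from RefSeq (GRCm38.p6). The members, lists and tests were chosen with earlier results of these data known. All members are named with their level; ratios with errors are given for called members, the 12 greatest in control P10 against P2, and the 6 greatest in SMA against control at each age. Other genes with a ratio were chosen after their values were seen. Alternatives covered the counts, the reading of the interval, scaling, filters, the pseudocount, overlap of intervals and each age left out.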

Additional observations from a re-analysis of the deposited data

How the results depend on the processing

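Of the counts of called guidance genes and medians of their ratios, 113 recomputed values lay near those reported and 6 counts did not. For control P10 against P2, with 1 member called, the z test from the expected counts called 2 (adding Sema3d, adjusted p = 0.0341), intervals that do not overlap gave 2, and reading the interval as that of 1 library called 5 (Unc5b, Sema3d, Sema5a, Epha3 and Sema6a; 920 loci in all against 126). That reading also called 1 member, Unc5b, in control P10 against P6, in SMA against control at P2 (adjusted p = 0.00038) and in the difference between genotypes of the change from P2 to P10 (adjusted p = 2.9e-05), where 0 were called before; over the other alternatives its adjusted p was 0.712 to 1.00 at P2 and 0.236 to 1.00 for that difference. Centring on all loci put the members' median at P6 at -0.01, from 0.05. With FPKM 5 or more the median in SMA P10 against P2 went from -0.01 to 0.02, and the median across ages of 0.03 became -0.0056 without the P10 groups and -0.0028 with expected counts. Among named genes, Unc5b across ages turned sign, to -0.21 without the P2 groups. Leaving out the P2, P6 or P10 groups, limma called 0 members each time. Expected counts of 12.4 to 2733 fragments per member limit what can be detected. So does the interval, whose upper bound lay a median of 55.7% above the members' FPKM at control P2. No paired analysis was possible because the columns hold group values and carry no replicate number.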

Other observations

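Matching guidance genes that lie in loci joining several symbols stand outside the comparisons above, and their values belong to the joined locus, not to 1 gene. The locus of Sema4d, a class 4 semaphorin and ligand of plexin-B receptors, with a predicted gene, had FPKM 7.67, 18.5 and 47.2 in control P2, P6 and P10 and 26.1, 19.2 and 25.8 in SMA. The locus of Plxnb3 and Srpk3 had 4.94, 11.8 and 30.8 in control and 17.6, 13.1 and 16.7 in SMA. Their log2 ratios of control P10 to P2 were 2.62 ± 0.67 and 2.64 ± 0.86, each larger than the 2.29 ± 0.54 of Unc5b, the greatest among the 54 single-symbol rows. No call is given here for any joined locus, so Unc5b as the 1 called gene holds for the single-symbol rows only. The other 8 joined loci had ratios between -0.82 and 0.24. The lowest of these was the locus of Robo2 and a microRNA, with FPKM 41.5, 33.4 and 23.6 in control and 35.9, 35.0 and 33.5 in SMA. The locus of Sema3a and a predicted gene had FPKM 13.4, 12.6 and 9.66 in control P2, P6 and P10, above Sema3c at each age, and the loci of Robo2 and of Plxna1 (34.9 at control P2) lay above Neo1 at control P2. Loci that hold Nrp1, Sema3a, Plxna1, Plxnb2, Efnb2 and Ephb6 lay at -0.35, -0.48, -0.55, -0.38, -0.36 and -0.59, and that of Sema4a at 0.24.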
